A study of Mus musculus with 27 samples.

Results

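The 10 genes described here encode receptors and markers by which microglia, the resident macrophages of the brain, are commonly recognised. They are Trem2, Tyrobp, P2ry12, P2ry6, Tmem119, Cx3cr1, Gpr34, Fcrls, Siglech, and Sall1. Their rows were taken by gene name from a table of 54532 genes, and each name matched 1 row. The question was whether the macrophages that grow beside induced neurons (iNs) take on genes of microglia.

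Microglia arise from yolk sac macrophages that enter the brain early in development. They keep a set of genes, only part of which other macrophages express weakly or not at all. Signals from the tissue, among them TGF-beta and the growth factors that bind the CSF1 receptor, maintain this set, and much of it is lost when microglia are placed in culture. Several of its products sense neurons: P2Y12 senses ADP, P2Y6 senses UDP, CX3CR1 binds the neuronal chemokine fractalkine, and TREM2 binds lipids and apolipoproteins and signals through the adaptor TYROBP.

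The cells were mouse embryonic fibroblasts (MEFs), made from embryos without head and heart and pooled over embryos, and macrophages occur in such cultures beside the fibroblasts. MEFs of 3 genotypes, WT, Per1-/-, and Per2-/- (knockouts of the circadian repressors Per1 and Per2), received lentiviruses for neuronal transcription factors, among them Brn2 and Myt1l, under a doxycycline-controlled promoter together with rtTA before day 0, and doxycycline with serum-free neuronal medium from day 0. RNA was taken on days 0, 2, and 4 from 3 replicates per genotype, making 27 libraries in 9 groups, and every group, WT included, carried the viruses. The values are FPKM, that is, fragments per kilobase of gene length scaled by the authors for library depth.

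Each library held between 15815013 and 24264097 fragments (median 19224804). The transcripts of the targeted genes did not follow all labels. From western blots the study reports loss of PER1 and PER2 protein in the matching knockout MEFs. Libraries with the label Per2-/- held more Per2 transcript than WT on day 0 (log2 fold change 1.03 ± 0.13 SE, adjusted p = 0.00114 in limma) and day 2 (0.82 ± 0.13, adjusted p = 0.0191), and they are called "labelled Per2-/-" throughout. Per1 did not differ between Per1-/- and WT cells beyond the threshold in limma on day 0 (-0.50 ± 0.14, adjusted p = 0.771), day 2 (-0.19 ± 0.14, adjusted p = 0.999), or day 4 (-0.21 ± 0.14, adjusted p = 0.933), so the transcript does not check the label Per1-/- either. Its level on days 0, 2, and 4 was 3.23 to 4.96, 3.62 to 4.51, and 4.23 to 4.59 FPKM in Per1-/- cells. In WT it was 5.44 to 6.33, 4.76 to 4.83, and 4.92 to 5.62 FPKM. Macrophage markers were present in every library: the mean log2(FPKM + 0.1) of 20 macrophage genes (Csf1r, Adgre1, Itgam, and others, here called the macrophage mean) was 1.06 to 3.98 on day 0, 2.06 to 4.26 on day 2, and 3.2 to 5.12 on day 4. The highest library of day 0 was Per1-/- replicate 3 (3.98) and the lowest was labelled Per2-/- replicate 2 (1.06), and both stand apart from the other replicates of their group. In bulk RNA, more macrophages and more of a transcript in each macrophage cannot be told apart, and this holds for every level below. No gene listed as a marker of neutrophils and monocytes, lymphocytes, or mast cells had a mean above 0.249 FPKM.

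Promoters were available from RefSeq for 6 of the 10 genes (GRCm38.p6, the 250 bases before each start). Of these, 3 are shown because their genes took different courses: Trem2, which was called higher only after day 2, Siglech, which had no fragment on day 0, and Sall1, which did not follow the macrophage genes. The windows of P2ry12, Cx3cr1, and Fcrls lie in annotated exons for 250, 250, and 136 of their bases and are not printed, and the printed window of Siglech reaches into its first exon by 6 bases. The windows were searched on both strands for purine-rich ETS motifs of the kind bound by PU.1, the master regulator of macrophages (GGAAGT and GAGGAA), and for the E-box bound by CLOCK and BMAL1 (CACGTG). Matches are in capitals, written on the strand of the gene.
Trem2, chr17:48346151-48346400, + strand: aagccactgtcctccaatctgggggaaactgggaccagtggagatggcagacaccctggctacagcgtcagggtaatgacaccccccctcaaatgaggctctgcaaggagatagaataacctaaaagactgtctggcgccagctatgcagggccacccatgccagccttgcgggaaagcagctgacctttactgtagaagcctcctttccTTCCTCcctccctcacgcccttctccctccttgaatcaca
Siglech, chr7:55767934-55768183, + strand: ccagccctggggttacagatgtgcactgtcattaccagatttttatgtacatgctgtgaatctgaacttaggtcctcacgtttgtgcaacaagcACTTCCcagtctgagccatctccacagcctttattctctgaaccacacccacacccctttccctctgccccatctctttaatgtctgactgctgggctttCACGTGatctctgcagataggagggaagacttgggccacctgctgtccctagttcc
Sall1, chr8:89044163-89044412, - strand: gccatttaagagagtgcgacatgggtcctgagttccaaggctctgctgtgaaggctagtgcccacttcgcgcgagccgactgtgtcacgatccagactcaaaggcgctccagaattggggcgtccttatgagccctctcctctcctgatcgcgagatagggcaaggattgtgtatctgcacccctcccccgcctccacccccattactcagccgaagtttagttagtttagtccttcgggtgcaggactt
The Trem2 window held GAGGAA on the opposite strand, 40 bases before the start. The Siglech window held GGAAGT on the opposite strand at 156 bases and CACGTG at 56 bases before the start. Sall1 has 3 windows for 3 starts: the one shown, at the most upstream start, held none of the 3 motifs, and of the other windows 1 held GGAAGT at 180 bases. Of the windows not printed, that of P2ry12 held GGAAGT and CACGTG, that of Fcrls held GGAAGT and GAGGAA, and that of Cx3cr1 held none. Among all 32851 windows of this length, 19.7% held GGAAGT, 23.3% held GAGGAA, and 6.02% held CACGTG.

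Trem2 and Tyrobp encode partners in one receptor complex: TREM2 has no signalling motif of its own and needs the adaptor TYROBP (DAP12). Trem2 (ENSMUSG00000023992, chr17:48346401-48354147, + strand) on day 0 was at 2.77, 1.66, and 1.61 FPKM in WT, 1.72, 2.22, and 7.31 in Per1-/-, and 3.83, 0.987, and 3.72 in labelled Per2-/- cells. By day 2 the values of Trem2 were 2.34, 1.94, and 2.82 in WT, 4.60, 3.66, and 7.35 in Per1-/-, and 2.21, 0.788, and 2.29 in labelled Per2-/- cells. The day 4 values of Trem2 were 6.81, 4.64, and 6.63 in WT, 12.8, 7.89, and 12.7 in Per1-/-, and 4.57, 3.30, and 5.53 in labelled Per2-/- cells. Days 0 and 2 overlapped in every genotype, and over the 9 libraries of each day all 3 days overlapped.

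Averaged over the 3 genotypes, the log2 fold change of Trem2 by day 2 was 0.12 ± 0.29 SE and did not pass the test (adjusted p = 0.716). It was -0.084 without labelled Per2-/- day 0 replicate 2 and -0.012 without Per1-/- day 0 replicate 1. Trem2 then rose between days 2 and 4 (1.27 ± 0.29, adjusted p = 0.00233). Tyrobp (ENSMUSG00000030579, chr7:30413760-30417585, + strand) spanned 7.24 to 56.0 FPKM over the 9 libraries of day 0 (median 21.6), 15.9 to 74.6 over those of day 2 (median 32.6), and 47.4 to 145 over those of day 4 (median 79.3). Tyrobp rose in both intervals, by 0.99 ± 0.30 to day 2 (adjusted p = 0.00547) and by 1.16 ± 0.30 from day 2 to day 4 (adjusted p = 0.00617).

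The level of Trem2 as a percentage of that of Tyrobp, both in FPKM and so per length, was 10.3% to 20.6% on day 0 (median 13.6%), 4.95% to 9.85% on day 2 (median 7.77%), and 6.85% to 9.69% on day 4 (median 8.29%). All 9 libraries of day 0 were above all libraries of day 2 and of day 4. The log2 ratio fell by 0.87 from day 0 to day 2 and by 0.76 from day 0 to day 4, each with p = 4.11e-05 (adjusted p = 6.17e-05 over 3 comparisons) in a two-sided exact permutation test of 9 against 9 libraries, which is the smallest p that this test can give. From day 2 to day 4 it differed by 0.11 (exact permutation p = 0.286). The ratio was chosen after its values were seen, which these p-values do not allow for, so they are a description. The test also treats the libraries as independent. How many other gene pairs separate the days in this way was not counted.

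P2ry12 and P2ry6 encode receptors for released nucleotides: P2Y12 guides microglial processes towards ADP, and P2Y6 triggers uptake of material in response to UDP. P2ry12 (ENSMUSG00000036353, chr3:59216272-59262871, - strand) on day 0 was at 0.846, 0.114, and 0.568 FPKM in WT, 0.365, 0.612, and 1.54 in Per1-/-, and 0.848, 0.250, and 0.502 in labelled Per2-/- cells. By day 2 the values of P2ry12 were 1.41, 1.32, and 1.62 in WT, 2.53, 2.40, and 3.12 in Per1-/-, and 0.794, 0.484, and 0.762 in labelled Per2-/- cells. The day 4 values of P2ry12 were 2.14, 2.33, and 2.87 in WT, 5.29, 3.73, and 4.79 in Per1-/-, and 1.62, 1.72, and 1.94 in labelled Per2-/- cells. All 9 libraries of day 4 were above all 9 of day 0, as for 19.8% of the tested genes.

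P2ry12 rose by day 2 (1.25 ± 0.26, adjusted p = 0.000161) and again from day 2 to day 4 (0.91 ± 0.26, adjusted p = 0.0101), which made it 4.47-fold higher than on day 0. P2ry6 (ENSMUSG00000048779, chr7:100937630-100974649, - strand) spanned 0.753 to 7.25 FPKM over the 9 libraries of day 0 (median 1.75), 1.94 to 7.27 over those of day 2 (median 3.90), and 2.64 to 14.1 over those of day 4 (median 5.08). P2ry6 rose by day 2 (0.95 ± 0.31, adjusted p = 0.00779), and the further difference to day 4 did not pass the test (0.61 ± 0.31, adjusted p = 0.139). From start to end, the P2ry12 gene overlaps Med12l on the opposite strand (mean 0.598 FPKM). Whether their exons overlap was not examined. The reads do not mark strand, so reads from any shared exon positions cannot be told apart.

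Cx3cr1 encodes the receptor for fractalkine, which neurons display and shed. Cx3cr1 (ENSMUSG00000052336, chr9:119901616-120069879, - strand) on day 0 was at 1.42, 0.708, and 0.708 FPKM in WT, 0.344, 0.734, and 4.00 in Per1-/-, and 2.76, 0.459, and 2.01 in labelled Per2-/- cells. By day 2 the values of Cx3cr1 were 6.98, 4.59, and 5.47 in WT, 8.25, 8.81, and 7.28 in Per1-/-, and 5.34, 2.94, and 3.72 in labelled Per2-/- cells. The day 4 values of Cx3cr1 were 7.71, 6.29, and 7.10 in WT, 9.49, 8.96, and 5.85 in Per1-/-, and 5.19, 4.67, and 4.04 in labelled Per2-/- cells. Over the 9 libraries of each day, day 0 overlapped day 2, and day 2 overlapped day 4. All 9 libraries of day 4 were above all 9 of day 0, as for 19.8% of the tested genes.

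Cx3cr1 rose by day 2 (2.25 ± 0.33, adjusted p = 2.81e-06, or 4.76-fold on the scale with the pseudocount), and the difference from day 2 to day 4 did not pass the test (0.18 ± 0.33, adjusted p = 0.723). It rose by day 2 in WT (2.51 ± 0.57, adjusted p = 0.00075), Per1-/- (2.83 ± 0.57, adjusted p = 0.000244), and labelled Per2-/- cells (1.41 ± 0.57, adjusted p = 0.042), where 20.8%, 20.8%, and 18.7% of all genes were called higher. The call in labelled Per2-/- cells ended without their day 0 replicate 2 (0.70), day 2 replicate 1 (1.18), or day 2 replicate 3 (1.44). From start to end, the Cx3cr1 gene overlaps 9 other genes, among them Gorasp1, Wdr48, and Csrnp1, at means of 6.68, 6.55, and 4.85 FPKM. Overlap of exons was not examined.

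Gpr34 encodes a receptor for lysophosphatidylserine, and Fcrls an Fc receptor-like scavenger receptor that is among the more selective microglial genes of the mouse. Gpr34 (ENSMUSG00000040229, chrX:13632089-13640858, + strand) rested on few fragments, 1 to 12 per library on day 0, 13 to 54 on day 2, and 21 to 108 on day 4. Its level spanned 0.0231 to 0.286 FPKM over the 9 libraries of day 0 (median 0.127), 0.314 to 1.33 over those of day 2 (median 0.794), and 0.479 to 3.17 over those of day 4 (median 1.49), and it passed the minimum for testing, a mean of 0.5 FPKM, only through the later days. All 9 libraries of day 2 were above all 9 of day 0, as for 19.7% of the tested genes. The fitted differences were 1.78 ± 0.22 by day 2 and 0.76 ± 0.22 from day 2 to day 4, both called, but as the gene entered the test through the days on which it is high they are given as a description. From start to end it overlaps Cask, which lies on the opposite strand and had a mean of 16.4 FPKM, and overlap of exons was not examined.

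Fcrls (ENSMUSG00000015852, chr3:87250758-87263738, - strand) on day 0 was at 10.4, 5.53, and 5.81 FPKM in WT, 6.29, 6.89, and 29.3 in Per1-/-, and 13.4, 3.36, and 10.4 in labelled Per2-/- cells. By day 2 the values of Fcrls were 16.4, 13.7, and 18.3 in WT, 38.1, 36.9, and 51.3 in Per1-/-, and 10.2, 7.30, and 11.7 in labelled Per2-/- cells. The day 4 values of Fcrls were 21.2, 13.1, and 42.0 in WT, 82.2, 63.4, and 74.5 in Per1-/-, and 7.79, 17.0, and 16.5 in labelled Per2-/- cells. Over the 9 libraries of each day, days 0 and 4 overlapped (3.36 to 29.3 and 7.79 to 82.2 FPKM). Averaged over genotypes, Fcrls rose by day 2 (1.14 ± 0.30, adjusted p = 0.00188), and the further difference to day 4 did not pass the test (0.58 ± 0.30, adjusted p = 0.155).

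Siglech encodes a sialic acid-binding lectin of microglia and plasmacytoid dendritic cells that also signals through TYROBP. Siglech (ENSMUSG00000051504, chr7:55768178-55778925, + strand) had 0 fragments in all 9 libraries of day 0. In WT it had 21, 7, and 16 fragments on day 2 and 30, 63, and 32 on day 4. In Per1-/- cells it had 35, 19, and 23 and then 47, 48, and 38, and in labelled Per2-/- cells 21, 6, and 9 and then 36, 17, and 16. Every library of days 2 and 4 thus held the transcript. How many other genes went from no fragment on day 0 to some in every later library was not counted. A count of 0 allows up to 3 fragments per library, and against that floor the mean of day 4 was at least 13-fold higher in WT, at least 12.5-fold higher in Per1-/-, and at least 6.31-fold higher in labelled Per2-/- cells. These limits cover counting error only. With a mean of 0.257 FPKM, Siglech was below the minimum for testing.

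Tmem119 and Sall1 are widely used to tell microglia from other macrophages: TMEM119 is a membrane protein also found in bone-forming cells, and SALL1 is a transcription factor that also acts in kidney and limb mesenchyme. Tmem119 (ENSMUSG00000054675, chr5:113793729-113800516, - strand) spanned 21.0 to 37.5 FPKM over the 9 libraries of day 0 (median 24.4), 41.3 to 59.3 over those of day 2 (median 53.0), and 32.0 to 56.8 over those of day 4 (median 49.0). All libraries of day 2 were above all of day 0, as for 19.7% of the tested genes. It rose by day 2 (1.02 ± 0.10, adjusted p = 1.04e-08), by 0.94 to 1.10 within the genotypes, and the difference from day 2 to day 4 did not pass the test (-0.13 ± 0.10, adjusted p = 0.377).

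Sall1 (ENSMUSG00000031665, chr8:89027235-89044162, - strand) on day 0 was at 1.08, 0.982, and 0.805 FPKM in WT, 0.481, 0.850, and 0.283 in Per1-/-, and 1.37, 1.14, and 1.74 in labelled Per2-/- cells. By day 2 the values of Sall1 were 1.18, 1.18, and 0.694 in WT, 1.03, 0.771, and 0.707 in Per1-/-, and 1.90, 1.68, and 1.84 in labelled Per2-/- cells. The day 4 values of Sall1 were 1.47, 1.31, and 1.26 in WT, 1.32, 0.977, and 0.617 in Per1-/-, and 3.00, 1.71, and 2.54 in labelled Per2-/- cells. On each day all labelled Per2-/- libraries were above all WT libraries, as for 2.78%, 4.29%, and 4.11% of all genes on days 0, 2, and 4. Averaged over genotypes, Sall1 rose from day 0 to day 4 (0.66 ± 0.17, adjusted p = 0.00141). The call ended below the minimum size without Per1-/- day 0 replicate 3 (0.55), without Per1-/- day 4 replicate 1 (0.579), or with a pseudocount of 1 (0.37).

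**Figure D1:**
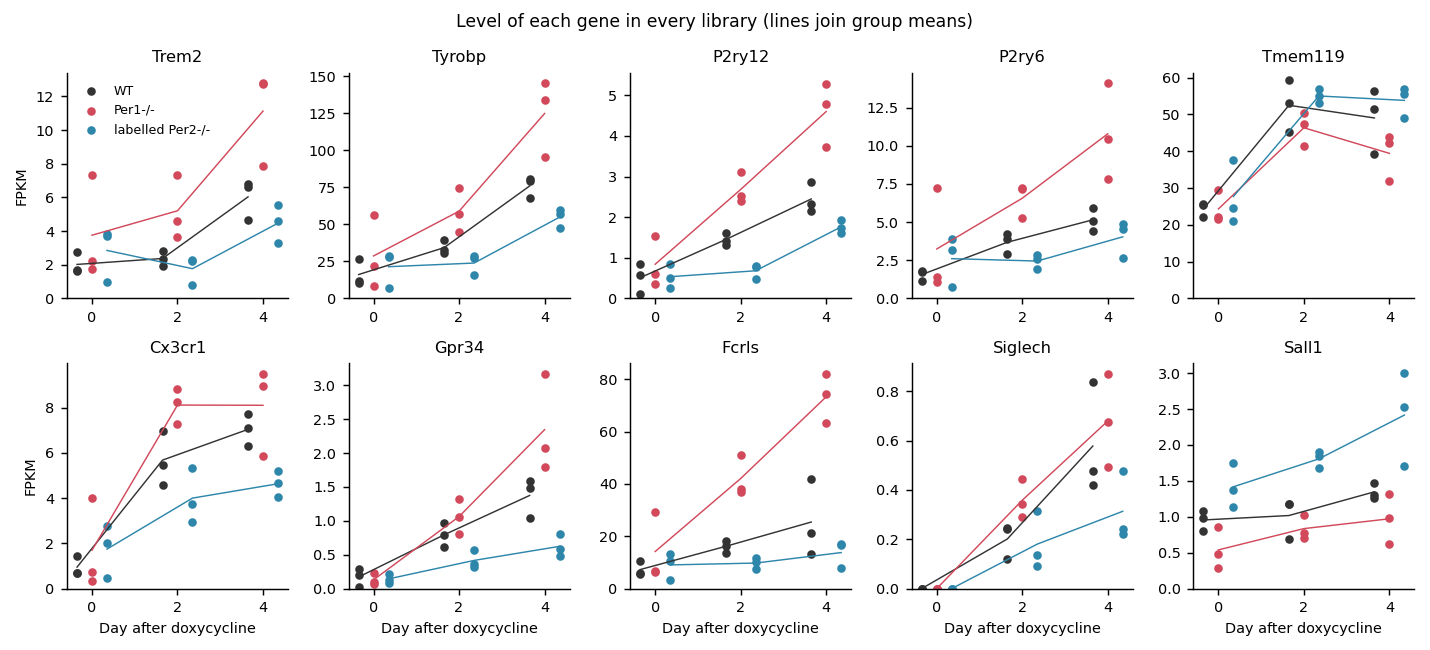
FPKM of each of the 10 genes (y axes, one panel per gene) on days 0, 2, and 4 (x axes), with a point per library coloured by genotype and lines through the group means. Siglech starts at 0 in all 9 libraries, and the median of Tmem119 moves from 24.4 on day 0 to 53.0 on day 2 and 49.0 on day 4.

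From day 0 to day 4, averaged over the genotypes, the 9 tested genes (all but Siglech) were called higher in limma, while 24.4% of all 14932 tested genes were higher and 21.2% lower. Gpr34, which entered the test through the days on which it is high, had to differ, and it is included in this and the following counts and in the median as a description only. A call needed an adjusted p no larger than 0.05 together with a log2 change of 0.58 or more. The log2 fold changes were 2.54 for Gpr34, 2.43 for Cx3cr1, 2.16 for P2ry12, 2.15 for Tyrobp, 1.72 for Fcrls, 1.56 for P2ry6, 1.39 for Trem2, 0.90 for Tmem119, and 0.66 for Sall1, with SEs of 0.10 to 0.33. Their median was 1.72, against -0.0059 over all tested genes. By day 2, 7 of the 9 were called higher including Gpr34 (22.2% of all genes), with Trem2 and Sall1 not called. Between days 2 and 4, Trem2, Tyrobp, P2ry12, and Gpr34 were called higher and none lower (6.54% and 3.43% of all genes).

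Within the genotypes, the count from day 0 to day 4 was 8 of 9 in WT (22.9% of all genes higher), 9 of 9 in Per1-/- (22.6%), and 6 of 9 in labelled Per2-/- cells (21.6%). Sall1 was not called in WT (0.46 ± 0.29, adjusted p = 0.175). In labelled Per2-/- cells, Fcrls (0.73 ± 0.52, adjusted p = 0.234), P2ry6 (0.84 ± 0.53, adjusted p = 0.175), and Trem2 (0.82 ± 0.50, adjusted p = 0.163) were not called. The count in labelled Per2-/- cells was 3 without their day 0 replicate 2, the library with the lowest macrophage mean.

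Whether the change from day 0 differed between Per1-/- cells and either other group was tested as an interaction on days 2 and 4. None of the 4 contrasts called any member or any other gene in limma (0%), and voom weights on fragments called 0 members. At an unadjusted p under 0.05 there were 0 and 0 of the 9 against WT and 3 and 2 against labelled Per2-/- cells, where 2.05%, 3.35%, 4.49%, and 5.99% of all genes passed that limit. On day 4 the latter contrast was 2.01 ± 0.74, adjusted p = 0.674, for Fcrls and 1.85 ± 0.53, adjusted p = 0.539, for Gpr34.

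**Figure D2:**
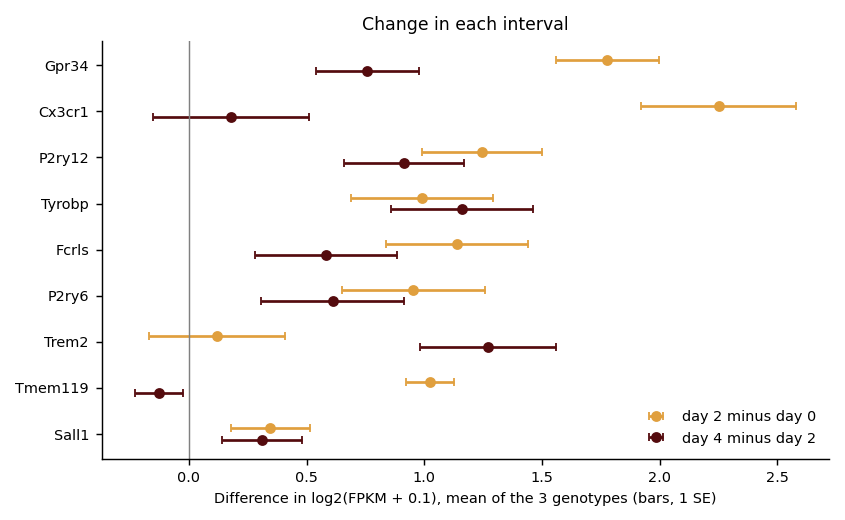
Change of the 9 tested genes in each interval (x axis, difference in log2(FPKM + 0.1) averaged over the 3 genotypes, bars 1 SE). Cx3cr1 and Tmem119 have 2.25 and 1.02 in the first interval and 0.18 and -0.13 in the second, while Trem2 has 0.12 and 1.27.

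The macrophage genes rose too, with 18 of the 20 called higher from day 0 to day 4 (median log2 fold change 1.69, range 0.19 to 3.60). By day 2, 11 of the 20 were called higher (median 0.70, range -0.54 to 2.34), a range that holds the 2.25 of Cx3cr1. The 9 genes were therefore also fitted after the macrophage mean of each library had been subtracted, a scale on which a gene that changes as these genes do stays at 0. From day 0 to day 2, Cx3cr1 rose relative to the macrophage mean (1.49 ± 0.26, adjusted p = 1.1e-05), where 7.09% of all genes were higher and 51.3% lower. It did so within WT (1.63 ± 0.45, adjusted p = 0.00887, 3.2% of all genes higher) and Per1-/- cells (1.58 ± 0.45, adjusted p = 0.00623, 2.3%), and in labelled Per2-/- cells the value was 1.27 ± 0.45, adjusted p = 0.0854 (4.03%). Gpr34, again as a description, was called higher (1.02 ± 0.39, adjusted p = 0.0238), but at a pseudocount of 1 it was at 0.061 and not called. Trem2 fell (-0.64 ± 0.25, adjusted p = 0.0252), but was not called with a pseudocount of 1 (-0.44), with no minimum FPKM, or without labelled Per2-/- day 2 replicate 2 (-0.55).

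From day 0 to day 4, averaged over genotypes, Cx3cr1 was higher relative to the macrophage mean (0.72 ± 0.26, adjusted p = 0.0104), where 4.11% of all genes were higher and 82.9% lower. With Csf1r, Adgre1, and Itgam alone as the reference it was at 0.37 and not called (nor with a pseudocount of 1, at 0.34), while its rise by day 2 was still called (1.27). Within the genotypes, Cx3cr1 was called on day 4 in WT (1.02 ± 0.45, adjusted p = 0.0411 in limma). It was not called in Per1-/- (0.63 ± 0.45, adjusted p = 0.190) or labelled Per2-/- cells (0.52 ± 0.45, adjusted p = 0.333). Sall1 (-1.05 ± 0.36, adjusted p = 0.00681) and Tmem119 (-0.81 ± 0.35, adjusted p = 0.0285) fell relative to the macrophage mean, the latter without a call when any of 7 libraries was left out (-0.76 to -0.51 without one of these). Gpr34 was called higher (0.83 ± 0.39, adjusted p = 0.0454), but its direction turned with a pseudocount of 1 (-0.36). No change was called for P2ry12 (0.45 ± 0.29), Tyrobp (0.44 ± 0.24), Fcrls (0.015 ± 0.26), P2ry6 (-0.14 ± 0.25), or Trem2 (-0.32 ± 0.25).

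**Figure D3:**
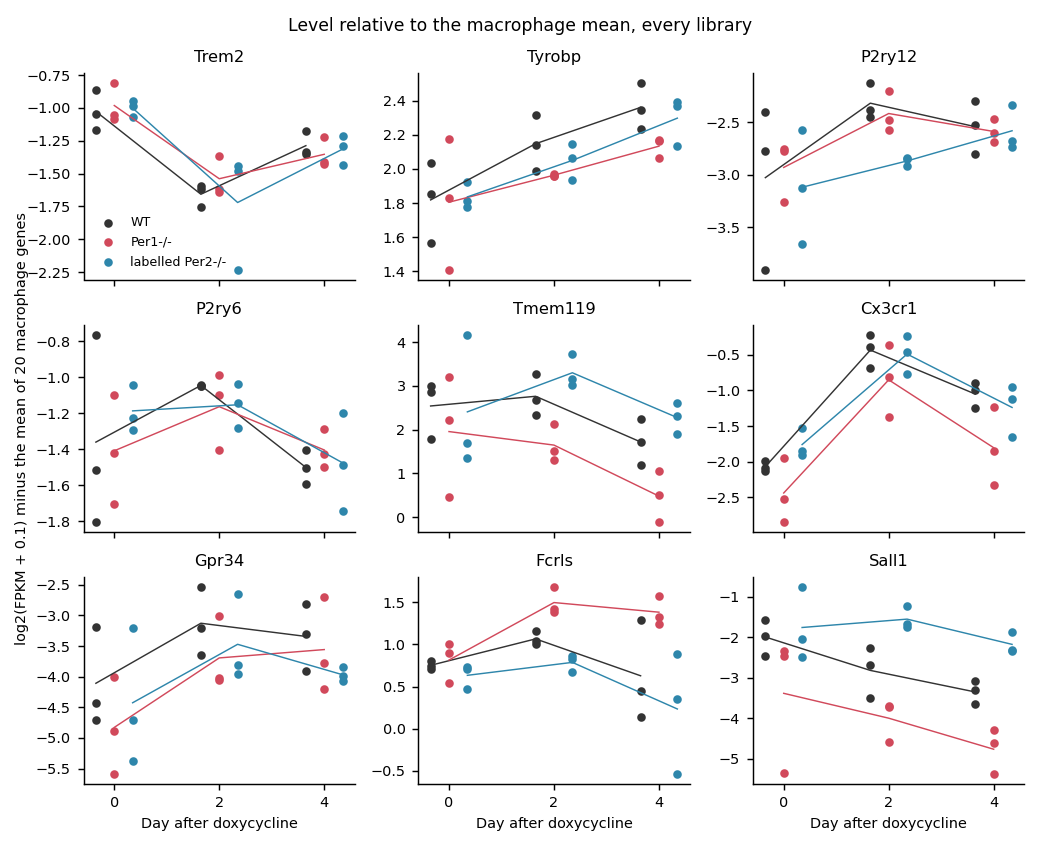
log2(FPKM + 0.1) of the 9 tested genes minus the macrophage mean (y axes) on days 0, 2, and 4 (x axes), with a point per library and lines through the group means. Cx3cr1 moves up by day 2 in every genotype, with a mean change of 1.49, and the mean change of Trem2 is -0.64.

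Within the 9 groups, libraries with more macrophage RNA also had more of most of these genes. The slope of the log2 level on the macrophage mean within groups, a comparison added after the values were seen, was 1.05 ± 0.065 for Tyrobp, 0.99 ± 0.071 for Trem2, 1.02 ± 0.091 for P2ry6, 1.05 ± 0.13 for Cx3cr1, 0.95 ± 0.12 for Fcrls, and 0.74 ± 0.12 for P2ry12. The largest adjusted p of these 6 was 0.00048 in limma, and 2.65% of all genes had a called positive slope. The 20 macrophage genes, which make up the mean, had slopes of 0.65 to 1.23. Tmem119 had a slope below 0 (-0.27 ± 0.056, adjusted p = 0.00437, with 1.13% of all genes called negative), which was not called without labelled Per2-/- day 0 replicate 2 (-0.22). Sall1 (-0.046 ± 0.14, adjusted p = 0.918 in limma) and Gpr34 (0.12 ± 0.17, adjusted p = 0.809) had no called slope. Gpr34 had only 1 to 12 fragments per library on day 0, at levels near the pseudocount, which limits its slope. Over the 27 libraries its r with the macrophage mean was 0.78, against -0.029 for Sall1, and within groups 0.17 and -0.080. All 10 fibroblast genes had slopes below 0 (median -0.28), of which 2 were called.

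**Figure D4:**
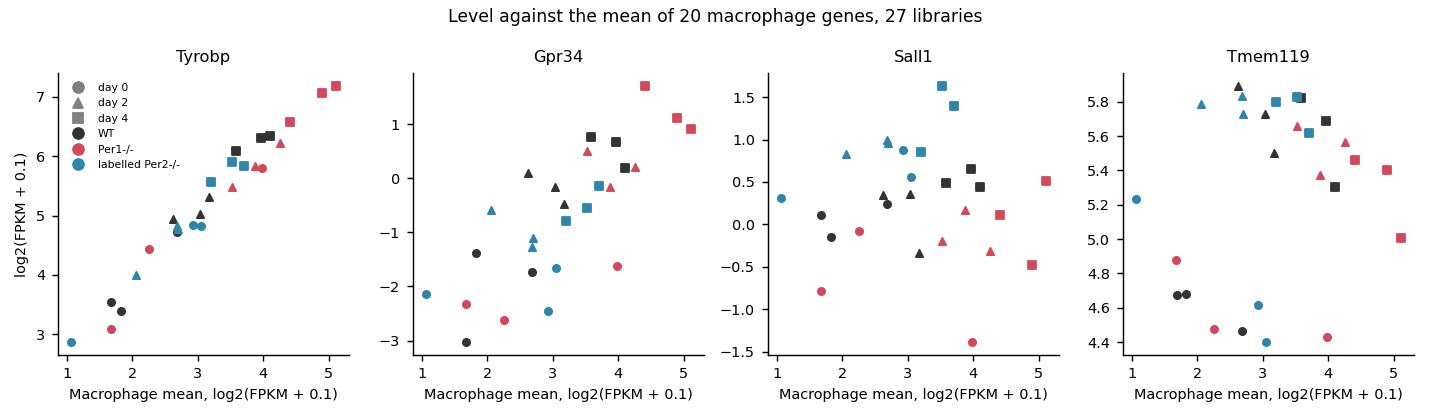
log2(FPKM + 0.1) of Tyrobp, Gpr34, Sall1, and Tmem119 (y axes) against the macrophage mean (x axes) in the 27 libraries, with colours for genotypes and shapes for days. The correlation over the 27 libraries is 0.98 for Tyrobp and 0.22 for Tmem119, and within the 9 libraries of day 0, 2, and 4 it is -0.80, -0.75, and -0.88 for Tmem119.

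The genes whose levels were most like each of the 9 were ranked by Pearson's r of log2(FPKM + 0.1) over the 27 libraries, a description in which days, genotypes, and cell makeup are mixed. Among the nearest were Ctss, Cd68, and C3ar1 for Trem2 (r = 0.982, 0.977, and 0.977), Nrros and Cyth4 for Tyrobp (r = 0.986 and 0.985), Fgd2, Pik3cg, and Ptprc for P2ry12 (r = 0.962, 0.960, and 0.956), and Inpp5d, Gna15, and Laptm5 for P2ry6 (r = 0.969, 0.968, and 0.968). Others were Rasgef1b, Siglec1, and Pld4 for Cx3cr1 (r = 0.959, 0.949, and 0.947), Mpeg1, Cd93, and Bin2 for Fcrls (r = 0.958, 0.958, and 0.954), and Akna and Ms4a4a for Gpr34 (r = 0.914 and 0.914). For the remaining genes they were Kdm4a, Dsel, and Zfp810 for Tmem119 (r = 0.951, 0.947, and 0.943) and Dixdc1, Itgb8, and Sox6 for Sall1 (r = 0.833, 0.819, and 0.818). Ctss, Cd68, Ptprc, Laptm5, and Mpeg1 in these lists are genes of the macrophage mean, and none of the 6 genes nearest to Tmem119 and Sall1 is.

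Between genotypes, the macrophage mean on day 4 was 4.41 to 5.12 in Per1-/-, 3.58 to 4.10 in WT, and 3.2 to 3.71 in labelled Per2-/- cells. The differences of level below are followed by those after its subtraction, and whether it causes them was not tested. No member was called between Per1-/- and WT cells in limma on day 0, 2, or 4, where 0.0134%, 0.0067%, and 0.0268% of all genes were called. At an unadjusted p under 0.05 there were 1, 2, and 1 of the 9 (against 4.82%, 2.75%, and 6.19% of all genes), and with voom weights the counts were 0 on each day. Fcrls differed most on day 4 (1.68 ± 0.52, adjusted p = 0.547). On days 2 and 4, Trem2, Tyrobp, P2ry12, P2ry6, and Fcrls had all 3 Per1-/- libraries above all 6 others, together with Cx3cr1 on day 2 and Gpr34 on day 4. That made 6 of the 9 on each day, against 3.07% and 4.92% of all genes. All 20 macrophage genes were also higher on average in Per1-/- than in WT cells on days 2 and 4 (median differences 0.92 and 0.85). Against labelled Per2-/- cells all 20 were higher as well (medians 1.41 and 1.32), and none was called in either comparison.

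Between Per1-/- and labelled Per2-/- cells on day 4, Fcrls (2.48 ± 0.52, adjusted p = 0.0262) and Gpr34 (1.74 ± 0.38, adjusted p = 0.0322) were higher in Per1-/- cells, and Sall1 was lower (-1.25 ± 0.29, adjusted p = 0.0471), with 0.556% of all genes called, 0.442% higher and 0.114% lower. P2ry6, P2ry12, Trem2, and Tyrobp differed by 1.17 to 1.40 and Cx3cr1 by 0.77 ± 0.57 without passing the test. These 3 calls were close to the threshold: 0 were made after FPKM had been rescaled to a common sum, 5 with voom weights, and 0 without any one of the 3 Per1-/- libraries or of labelled Per2-/- replicates 1 and 3. No member was called on day 0 or day 2 in limma (0.0201% and 0.0737% of all genes), where 1 and 7 of the 9 had an unadjusted p under 0.05 (5.97% and 8.22% of all genes) and voom weights called 0 on both days. On day 4 there were 8 of the 9 at that limit (13.2% of all genes).

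Between labelled Per2-/- and WT cells no member was called on day 0, 2, or 4 in limma (0.0067%, 0.0268%, and 0.0067% of all genes). There were 0, 3, and 2 of the 9 at an unadjusted p under 0.05 (3.94%, 2.87%, and 3.42% of all genes), and voom weights called 0 on each day.

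Relative to the macrophage mean, Fcrls was higher in Per1-/- than in labelled Per2-/- cells on day 4 (1.15 ± 0.45, adjusted p = 0.0409), where 0.0201% of all genes were higher, but this call ended with each of the 6 libraries left out in turn (0.76 to 1.48). Against WT it was not called (0.75 ± 0.45, adjusted p = 0.195), and neither was any other gene (0%). Sall1 (-2.58 ± 0.62, adjusted p = 0.0318) and Tmem119 (-1.79 ± 0.60, adjusted p = 0.0409) were lower in Per1-/- cells on this scale, as were 68.3% of all genes. Gpr34 was not called (0.41 ± 0.68, adjusted p = 0.56). Against labelled Per2-/- cells, Trem2, Tyrobp, P2ry12, P2ry6, and Cx3cr1 were at -0.040, -0.16, -0.0068, 0.071, and -0.56 on this scale. Against WT they were at -0.066, -0.23, -0.045, 0.097, and -0.75. None of these was called.

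**Figure D5:**
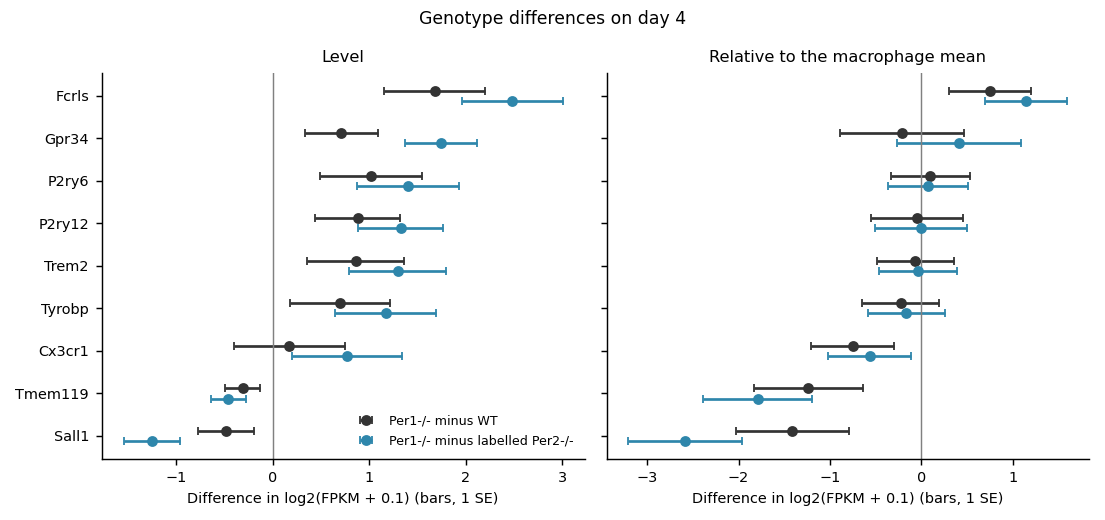
Differences between Per1-/- cells and the other 2 groups on day 4 (x axes, difference in log2(FPKM + 0.1), bars 1 SE), as levels and after the macrophage mean had been subtracted. Against labelled Per2-/- cells, Fcrls is at 2.48 and 1.15 on the 2 scales, and Sall1 is at -1.25 and -2.58.

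In levels per length, the order on day 4 was Tyrobp, Tmem119, Fcrls, Trem2, Cx3cr1, P2ry6, P2ry12, Gpr34, Sall1, and Siglech by the median of the 9 libraries, and the range of each gene overlapped that of its neighbour. On day 0, Tmem119 was above Tyrobp, and Sall1 was above Cx3cr1, P2ry12, and Gpr34. There, Gpr34 and Siglech were the only neighbours whose ranges did not overlap.

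Other genes that mark or maintain microglia changed in part. Of 30 such genes, 23 were tested, and 13 were called higher and 1 lower from day 0 to day 4 averaged over genotypes, with a median log2 fold change of 0.87, beside 24.4% and 21.2% of all genes. Among the 4 most abundant, Gas6, a ligand of phagocytic receptors (1.51 ± 0.20), and C1qb, a complement subunit (1.80 ± 0.31), rose, and the matrix protein gene Sparc (0.040 ± 0.089) and the protease inhibitor gene Cst3 (0.32 ± 0.11) were not called. Chosen after their values were seen, P2ry13, a further ADP receptor (2.62 ± 0.30), and Cd33, a sialic acid-binding receptor (2.86 ± 0.22), rose, and Runx1, a haematopoietic transcription factor, was the gene that fell (-1.26 ± 0.13). Tgfb1, the cytokine that sustains microglial genes (0.74 ± 0.14, adjusted p = 0.0191 in limma), and the transcription factor gene Bhlhe41 (1.40 ± 0.30, adjusted p = 0.0324) were higher in Per1-/- than in labelled Per2-/- cells on day 4. They were the 2 of the 23 called, beside 0.442% of all genes higher. The macrophage mean was also higher in these Per1-/- libraries, and its part was not tested. No alternatives are given for these calls or for those of this comparison in the lists below.

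Of 21 genes of signalling by TREM2 and TYROBP, 16 were tested, and 12 were called higher and 0 lower from day 0 to day 4 (median 1.01), beside the same 24.4% and 21.2% of all genes. Among the 4 most abundant, the phosphatase gene Ptpn6 rose (2.29 ± 0.27), and the sheddase genes Adam10 (-0.059 ± 0.042) and Adam17 (0.25 ± 0.052) and the adaptor gene Grb2 (0.030 ± 0.042) were not called. Syk, the kinase recruited by TYROBP (1.32 ± 0.30, adjusted p = 0.0435 in limma), and Pik3cd, a subunit of phosphoinositide 3-kinase (1.01 ± 0.19, adjusted p = 0.0151), were higher in Per1-/- than in labelled Per2-/- cells on day 4. They were the 2 of the 16 called, beside 0.442% of all genes higher.

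Of 16 genes of ligands and purine handling, 13 were tested, and 6 were called higher and 4 lower (median -0.26), beside 24.4% and 21.2% of all genes. Apoe (1.13 ± 0.32) and Clu (1.08 ± 0.23), which encode lipoproteins that TREM2 binds, rose, and Csf1, a ligand of the CSF1 receptor (-1.56 ± 0.12), and Thbs1, a matrix glycoprotein (-2.59 ± 0.11), fell. Chosen after their values were seen, Cx3cl1, the ligand of CX3CR1 (-0.26 ± 0.17, adjusted p = 0.154), and Il34, the other ligand of the CSF1 receptor (-0.46 ± 0.25, adjusted p = 0.0974), were not called.

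Of 20 genes of disease-associated microglia, a state that depends on TREM2, 17 were tested, and 4 were called higher, a share near the 24.4% of all genes, and 9 lower, beside 21.2% of all genes (median -0.80). Spp1, or osteopontin (-2.54 ± 0.31), the tetraspanin gene Cd63 (-0.98 ± 0.043), and the protease gene Ctsd (-0.84 ± 0.11) fell, and the protease gene Ctsb was not called (-0.26 ± 0.12). These 4 genes are also expressed by fibroblasts. Igf1, a growth factor, was higher in Per1-/- than in labelled Per2-/- cells on day 4 (1.25 ± 0.27, adjusted p = 0.0308 in limma), the 1 of the 17 called, beside 0.442% of all genes higher.

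Of 16 genes of border and tissue macrophages, 7 were tested, and 5 were called higher (24.4% of all genes) and 0 lower. They were Mrc1, the mannose receptor (2.63 ± 0.28), the chemokine gene Pf4 (1.44 ± 0.45), the transcription factor gene Maf (1.54 ± 0.12), the scavenger receptor gene Cd36 (1.5 ± 0.33), and Ms4a7 (2.45 ± 0.27), the last chosen after its values were seen. Maf was higher in Per1-/- than in labelled Per2-/- cells on day 4 (1.02 ± 0.21, adjusted p = 0.0214 in limma), the 1 of the 7 called, beside 0.442% of all genes higher.

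Markers of other cells that the culture could hold also moved from day 0 to day 4, with 8 of 10 fibroblast genes higher and 1 lower, 8 of 10 neuronal genes higher and 1 lower, 3 of 6 astrocyte genes higher and 1 lower, 3 of 4 oligodendrocyte genes higher and 0 lower, 1 of 4 osteoblast genes higher and 2 lower, and 1 of 2 endothelial genes higher and 1 lower, beside 24.4% and 21.2% of all genes. Their part in the changes of Tmem119 and Sall1 was not tested.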

How the data were processed

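Poly-A, nondirectional RNA-seq of 27 libraries was used. According to the methods of the study, the authors aligned reads to GRCm38 with HISAT2 2.0.5, counted them on genes with featureCounts 1.5.0-p3, and deposited FPKM. With the deposited gene length, 100% of the FPKM values gave whole fragments (tolerance 0.01). The 10 genes and all gene lists were chosen with earlier results of these data known.

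A pseudocount of 0.1 was added to FPKM before taking log2. The 14932 genes whose mean reached 0.5 FPKM were fitted in limma 3.58.1 (R 4.3.3, eBayes with trend) with 9 groups and no block, and p-values were adjusted by Benjamini-Hochberg over all of them. Calls required adjusted p no larger than 0.05 and a log2 change of 0.58 or more in either direction. A fold change on this scale understates that of low genes. The authors tested counts with DESeq2. As the deposited values are FPKM, limma was used here, and voom on the recovered fragments was an alternative. Slopes were fitted with the macrophage mean as a covariate and called by adjusted p alone.

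From each list, the text names at most 4 tested genes of highest mean FPKM, those called between genotypes, and genes said to be chosen after their values were seen. For each tested member, the first 3 of the 5 genes with the highest Pearson's r are named, except for genes not reported here. No replicate pair was a duplicate (chi-square divided by its degrees of freedom 9.77 to 74.5). The labels number biological replicates without naming their cultures or embryos, so p-values measure the spread between these libraries. The alternatives were pseudocounts of 1 and 0.01, a minimum of 1 FPKM or none, FPKM rescaled to a common sum, voom weights, replicate blocks, another macrophage reference, and each library left out, among others. The procedure was tested on simulated data. Promoters came from RefSeq.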

Additional observations from a re-analysis of the deposited data

How the results depend on the processing

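With a pseudocount of 1, the counts of members called relative to the macrophage mean were 1 (day 2 against day 0) and 2 (day 4 against day 0) in place of 3 and 4, and 1 member was called between Per1-/- and labelled Per2-/- cells on day 2 in place of 0. On day 4 this comparison called 1 member with a pseudocount of 0.01, 0 after rescaling to a common sum, and 5 with voom weights, in place of 3. When single libraries were left out, the counts ranged from 0 to 2 for this comparison, 3 to 6 for day 4 against day 0 in labelled Per2-/- cells, and, relative to the macrophage mean, 1 to 4 for day 2 (lowest without labelled Per2-/- day 2 replicate 2) and 2 to 3 for day 4 against day 0 (lowest without WT day 0 replicate 2 or labelled Per2-/- day 4 replicate 3). Every other count of members stayed within 1.5 times under the alternatives run. Rescaling to a common sum gave a median of all genes of 0.36 (day 2) and 0.29 (day 4 against day 0).

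The following values changed direction. Relative to the macrophage mean from day 0 to day 4, P2ry12 was at -0.14 and Gpr34 at -0.36 with a pseudocount of 1, and Fcrls was at -0.046 with a pseudocount of 0.01, -0.34 with 3 reference genes, and -0.10 to 0.14 with libraries left out. From day 0 to day 2, P2ry6 was at -0.030 with 3 reference genes, and the level of Trem2 ranged from -0.084 to 0.33 with libraries left out. Between Per1-/- and labelled Per2-/- cells on day 4, Gpr34 relative to the macrophage mean was at -0.20 with a pseudocount of 1 and -0.018 to 0.73 with libraries left out. The slope of Gpr34 was -0.028 with a pseudocount of 1 and -0.065 to 0.18 with libraries left out, and that of Sall1 was 0.0071 with a pseudocount of 1, 0.026 with genotype and replicate number as a replicate block, and -0.18 to 0.21 with libraries left out. The log2 ratio of Trem2 to Tyrobp from day 2 to day 4 was -0.12 with a pseudocount of 1. The causes were not tested.

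Libraries of one genotype with the same replicate number on different days had deviations correlated by -0.017 to 0.29 (median 0.13, over 0.1 in 14 of 27 pairs). In 48 of 54 comparisons a library correlated best with its own number, so the numbers may mark shared cultures, which the labels do not name. The main fits and the permutation test did not pair the libraries and treat them as independent. With genotype and replicate number as a replicate block, the count from day 0 to day 4 in labelled Per2-/- cells was 7 in place of 6, with Trem2 gained (adjusted p = 0.0258 in limma).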
